A study of Homo sapiens with 4 samples.

Results

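Expression was followed for 10 genes of fatty acid synthesis and desaturation, SREBF1, ACLY, ACACA, FASN, SCD, ELOVL1, ELOVL5, ELOVL6, FADS1 and FADS2, which were picked by gene name from a deposited table of 58735 human genes. Each name occurred once, and all 10 had a mean of at least 1 FPKM (read density over the gene's length after scaling each library) over the 4 libraries, the filter that left 13775 genes for testing. By its labels the RNA came from OVCAR8 cells, a widely used line derived from an ovarian carcinoma. It was sequenced as 2 libraries in each of 2 groups. Cells of shCON received a scrambled short hairpin and are labelled wild type, and cells of shFAM49B received hairpins against FAM49B. The treatment protocol describes lentiviral hairpin plasmids brought in by lipofection, with harvest after 36 h, whereas the design text calls the knockdown stable. The sources used here do not state the hairpin sequences, any selection or clonality, or whether replicates were grown separately. The p-values therefore measure only the spread between these libraries, which may be technical.

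Fatty acids are built in the cytosol from citrate. ATP citrate lyase (ACLY) splits citrate to acetyl-CoA, acetyl-CoA carboxylase (ACACA) makes malonyl-CoA in the committed step, and fatty acid synthase (FASN) joins these units to palmitate. In the endoplasmic reticulum, elongases (ELOVL) lengthen the chain and desaturases (SCD, FADS1, FADS2) introduce double bonds. SREBF1 encodes the membrane-bound transcription factor SREBP1, which is released by proteolysis and activates the promoters of these enzymes, and many tumours are known for high lipogenic activity.

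FAM49B stood at 7.41 and 7.60 FPKM in shCON and at 1.06 and 1.02 FPKM in shFAM49B, 7.21-fold lower (log2 fold change -2.06, limma adjusted p = 0.00054). The libraries held 15639559 to 16875353 reads, recovered from FPKM and gene length. The deposited values had been scaled so that shFAM49B lies higher, relative to shCON, than after division by a library's reads. The median log2 fold change of tested genes shifted by -0.19 relative to recovered reads and by -0.24 as TPM, in which every library sums to the same total. Of the tested genes 26.4% were higher and 15.8% lower in shFAM49B as deposited, against 11.6% and 31.7% as TPM, so modest changes are relative to the scaling. Among 8 markers of ovarian carcinoma and epithelium, 4 had a mean of at least 1 FPKM: KRT8, KRT18, EPCAM and WT1. The 8 summed to 71.7 to 74.3 FPKM in shCON and 62.6 to 63.0 in shFAM49B. Most of this came from KRT8 (37.4 to 41.7 FPKM) and KRT18 (23.2 to 28.0). WT1 was low (0.840 to 1.56), and PAX8 (0.0264 to 0.112), MUC16 (0 to 0.00305), MSLN (0.0510 to 0.232) and KRT7 (0 to 0.0724) were near 0. EPCAM stood at 2.94 and 2.96 FPKM in shCON and at 0.129 and 0.345 FPKM in shFAM49B, and its part in the results below was not tested. None of 5 adipocyte markers reached 1 FPKM (summed level 0.537 to 0.568 FPKM in shCON and 0.565 to 0.620 in shFAM49B), and ADIPOQ and FABP4 were listed at 0 in every library. In bulk RNA, fewer cells of a type and less RNA per cell cannot be told apart.

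The fatty acid genes moved in both directions. SCD, ACLY, FASN, FADS2, FADS1 and ELOVL1 rose in shFAM49B, SREBF1 and ELOVL6 fell, and ACACA and ELOVL5 did not pass. These 6 of 10 higher and 2 of 10 lower stood against 26.4% and 15.8% of all tested genes. With a filter at 5 FPKM 3187 of 7756 tested genes were higher, beside 5 fatty acid genes, with FADS2 and ELOVL6 not tested. The groups did not overlap for any of the 10 genes, nor for 74.7% of all tested genes. Their median log2 fold change was 0.30, against 0.05 over all tested genes. The median of the 10 stood at 0.081 with TPM and at 0.093 with scaling by recovered reads. These 2 scalings shifted the log2 fold change of tested genes by a median of -0.24 and -0.19, so 0.05 is not their reference. As TPM 4 were higher and 2 lower (background 11.6% and 31.7%), and relative to recovered reads the counts were the same (background 12.5% and 30.3%). After quantile normalization 3 were higher and 2 lower (background 19.2% and 17.8%), and with the replicate number as a block 5 and 2 (background 24.9% and 14.8%).

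**Figure D1:**
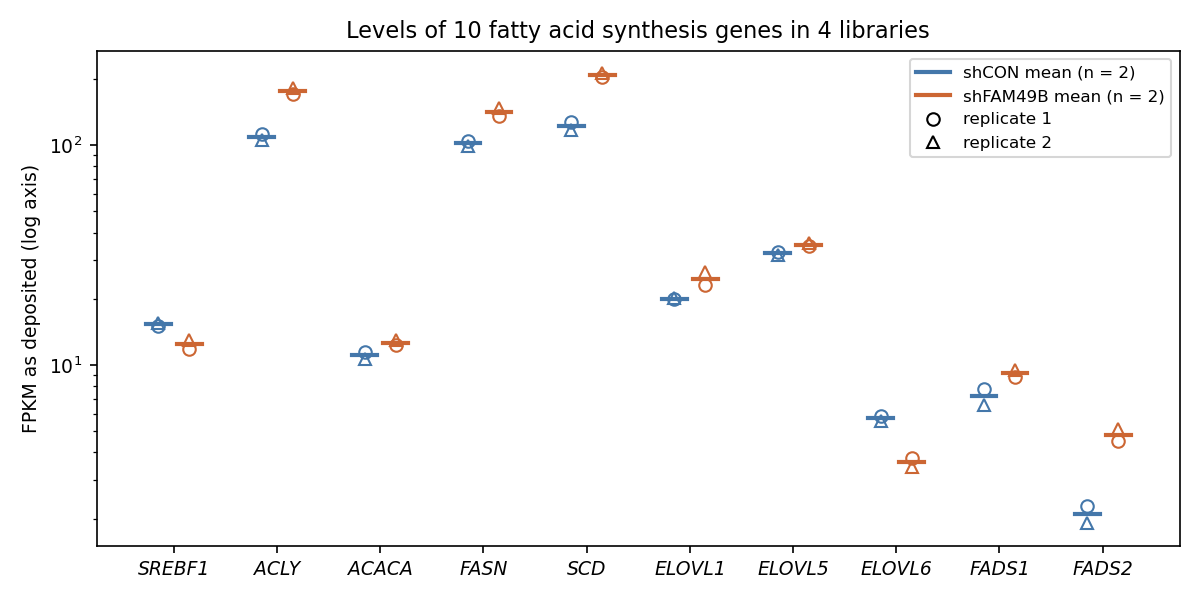
Level of each fatty acid gene in FPKM as deposited, on a log axis, in the 4 libraries, with symbols for single libraries and bars for the means of 2. SCD, ACLY and FASN lie near or above 100 FPKM in every library, while FADS2 and ELOVL6 lie below 6 FPKM and exchange their order between the groups.

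SREBF1 (ENSG00000072310, chromosome 17, 17810399 to 17837002, minus strand, GRCh38), the transcription factor of the set, measured 15.1 and 15.6 FPKM in shCON and 11.8 and 13.0 FPKM in shFAM49B. Both knockdown libraries were below both controls. The mean went from 15.3 ± 0.325 to 12.4 ± 0.870 FPKM (SD, n = 2), 1.24-fold lower, with a log2 fold change of -0.29 (95% interval -0.46 to -0.11, limma adjusted p = 0.0256). SREBF1 fell under each of 4 other scalings, by a log2 fold change of -0.54 as TPM and -0.50 relative to recovered reads. These 2 scalings shifted the median tested gene by -0.24 and -0.19, so they add no independent support for the fall. The call was lost without shCON replicate 1 (adjusted p = 0.0884), shCON replicate 2 (0.115) or shFAM49B replicate 1 (0.0898) and without the filter on low values (0.0715), each with a negative fold change. RAI1, on the opposite strand, shares 556 exonic bases with SREBF1 (6.92% of the SREBF1 exons) and had a log2 fold change of -0.14 (adjusted p = 0.138). The microRNA gene MIR33B, which lies within SREBF1, was listed at 0 in all libraries, as was every other microRNA gene overlapping a fatty acid gene. Whether MIR33B was expressed cannot be read from these values.

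ACLY (ENSG00000131473, chromosome 17, 41866908 to 41930542, minus strand), which supplies cytosolic acetyl-CoA, measured 112 and 106 FPKM in shCON and 170.1 and 181 FPKM in shFAM49B. The groups were well apart compared with the gaps inside them. ACLY rose 1.61-fold, from 109 ± 4.42 to 176 ± 7.81 FPKM (log2 fold change 0.68, 95% interval 0.52 to 0.84, limma adjusted p = 0.00227). This rise passed under all 13 alternatives tried, with log2 fold changes of 0.22 to 0.73. ACACA (ENSG00000278540, chromosome 17, 37084988 to 37406818, minus strand), the carboxylase that follows it, measured 11.5 and 10.7 FPKM in shCON and 12.4 and 12.9 FPKM in shFAM49B. Its groups did not overlap, but the difference of 0.17 (95% interval 0.01 to 0.34) did not pass (limma adjusted p = 0.0886). The sign of ACACA turned as TPM (-0.055) and relative to recovered reads (-0.034). With voom, limma's weighted fit for reads, ACACA passed as higher (0.19, adjusted p = 0.0243). That fit kept the median-ratio scaling of the deposited values.

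FASN (ENSG00000169710, chromosome 17, 82078333 to 82098332, minus strand), the multi-domain synthase, measured 104 and 99.6 FPKM in shCON and 135 and 148 FPKM in shFAM49B. It rose 1.39-fold, from 102 ± 3.38 to 142 ± 8.82 FPKM (log2 fold change 0.47, 95% interval 0.30 to 0.64, limma adjusted p = 0.00562). The FASN call was lost after quantile normalization (log2 fold change 0.04, adjusted p = 0.529). SCD (ENSG00000099194, chromosome 10, 100347124 to 100364834, plus strand), which makes monounsaturated from saturated acyl-CoA, measured 127 and 117 FPKM in shCON and 204 and 212 FPKM in shFAM49B. SCD was the most abundant of the 10 transcripts per length in both groups. It rose 1.70-fold, from 122 ± 6.91 to 208 ± 5.99 FPKM (log2 fold change 0.76, 95% interval 0.60 to 0.93, limma adjusted p = 0.00202). All 13 alternatives kept the SCD rise past the threshold (0.31 to 0.82).

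The elongases did not share a direction. ELOVL6 (ENSG00000170522, chromosome 4, 110045846 to 110199199, minus strand), which extends palmitate to stearate, measured 5.88 and 5.58 FPKM in shCON and 3.77 and 3.44 FPKM in shFAM49B. It fell 1.59-fold, from 5.73 ± 0.213 to 3.61 ± 0.232 FPKM (log2 fold change -0.55, 95% interval -0.74 to -0.35, limma adjusted p = 0.00550), and passed as lower under all 12 alternatives that tested it (-0.86 to -0.50). ELOVL1 (ENSG00000066322, chromosome 1, 43363397 to 43368074, minus strand), which extends very long saturated chains, measured 19.9 and 20.1 FPKM in shCON and 23.1 and 26.4 FPKM in shFAM49B. The knockdown libraries differed more from each other than the control libraries did. ELOVL1 rose 1.24-fold as deposited (log2 fold change 0.29, 95% interval 0.09 to 0.49, limma adjusted p = 0.0331). It passed under none of the 4 other scalings (0.06 to 0.23). ELOVL1 also failed without shCON replicate 1 (adjusted p = 0.121), shCON replicate 2 (0.107) or shFAM49B replicate 2 (0.109) and without the filter on low values (0.0981). ELOVL5 (ENSG00000012660, chromosome 6, 53267398 to 53349179, minus strand), which extends polyunsaturated chains, was the most abundant elongase at 32.6 and 31.8 FPKM in shCON and 34.7 and 35.7 FPKM in shFAM49B. Its difference of 0.13 (95% interval -0.01 to 0.26, limma adjusted p = 0.118) did not pass, and its sign turned as TPM (-0.11), relative to recovered reads (-0.093) and after quantile normalization (-0.077).

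FADS1 and FADS2, neighbours on chromosome 11, encode the front-end desaturases of polyunsaturated fatty acids, and FADS2 carries out the step taken as rate limiting. FADS2 (ENSG00000134824, 61792980 to 61867354, plus strand) measured 2.30 and 1.91 FPKM in shCON and 4.51 and 5.10 FPKM in shFAM49B, from 389 to 841 reads per library. It had the largest fold of the 10 genes, 2.29-fold, from 2.10 ± 0.274 to 4.81 ± 0.413 FPKM (log2 fold change 0.91, 95% interval 0.64 to 1.17, limma adjusted p = 0.00344). With a pseudocount of 0.1 in place of 1 the log2 fold change of this low gene was 1.16, and with voom 1.20. FADS1 (ENSG00000149485, 61799625 to 61829318, minus strand) measured 7.80 and 6.61 FPKM in shCON and 8.80 and 9.52 FPKM in shFAM49B. The gap between its control libraries was larger than the gap from the upper control to the lower knockdown library. FADS1 rose 1.27-fold as deposited (log2 fold change 0.31, 95% interval 0.08 to 0.55, limma adjusted p = 0.0456) and passed under none of the 4 other scalings (0.10 to 0.27). It also failed without shCON replicate 2 (adjusted p = 0.187), shFAM49B replicate 1 (0.0912) or shFAM49B replicate 2 (0.182), without the filter on low values (0.134), and with the replicate number as a block (0.0649). FADS1 lies inside the span of FADS2 on the opposite strand, and the genes share 490 exonic bases, 4.79% of FADS1 and 4.44% of FADS2. Whether reads were counted by strand is not given in the sources used here, so reads in those bases cannot be told apart. FEN1, which shares 49 exonic bases with FADS2, had a log2 fold change of -0.04 (adjusted p = 0.625).

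**Figure D2:**
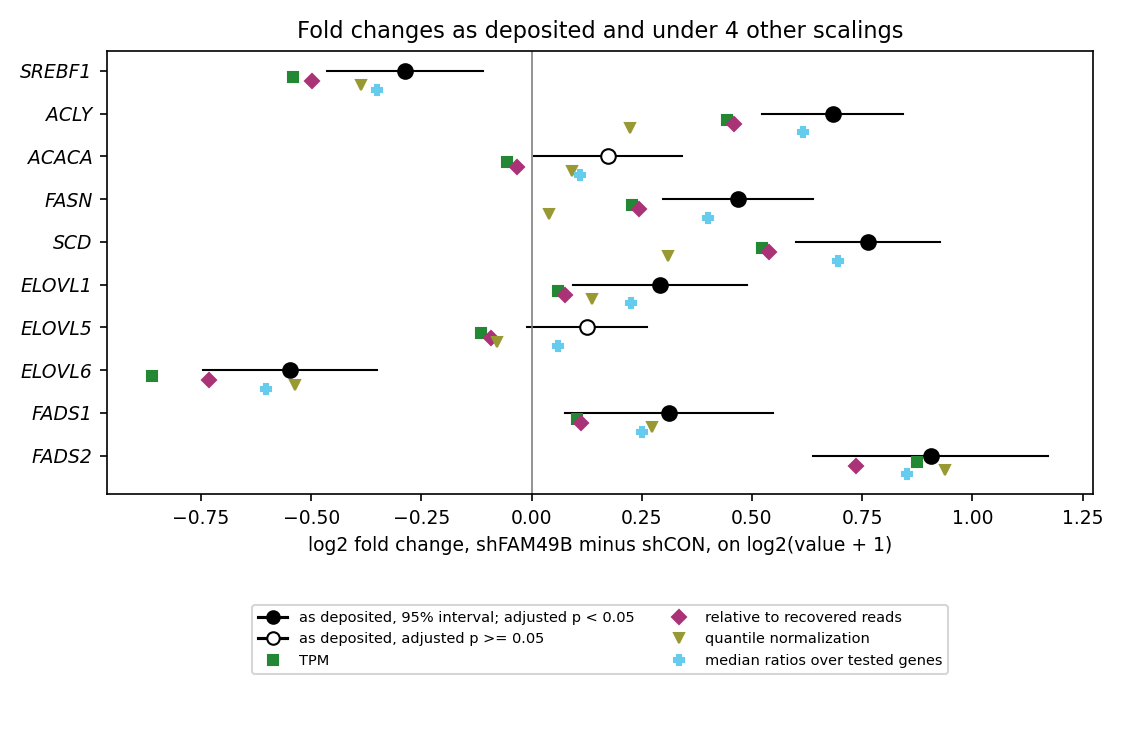
Log2 fold change of each fatty acid gene, shFAM49B minus shCON, on log2(value + 1): circles with 95% intervals for the values as deposited (filled where the limma adjusted p was under 0.05) and coloured symbols for 4 other scalings. ACLY, SCD and FADS2 stay to the right of 0 and SREBF1 and ELOVL6 to the left under every scaling shown, while ACACA and ELOVL5 fall on both sides.

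Ratios between genes inside a library do not depend on how libraries are scaled to each other. Most of the pairs compared did not overlap between the groups, but neither did 74.7% of all tested genes taken singly. The share over other gene pairs was not computed. With 2 libraries a group the smallest exact 2-sided permutation p is 0.333, so these ratios carry no test. SREBF1 relative to SREBF2, the paralog that mainly drives cholesterol genes, was 0.638 and 0.671 in shCON and 0.319 and 0.332 in shFAM49B, 2.01-fold lower. FASN relative to SREBF1 was 6.91 and 6.40 in shCON and 11.5 and 11.4 in shFAM49B, and SCD relative to SREBF1 was 8.42 and 7.55 in shCON and 17.3 and 16.3 in shFAM49B. Both enzymes thus stood higher relative to the factor in each knockdown library. FADS1 relative to FADS2 went from 3.40 and 3.46 in shCON to 1.95 and 1.87 in shFAM49B. ELOVL6 relative to ELOVL1 was 0.296 and 0.278 in shCON and 0.163 and 0.131 in shFAM49B. SCD relative to FASN was 1.22 and 1.18 in shCON and 1.51 and 1.44 in shFAM49B, so even among the rising genes the changes were unequal. ACACA relative to its paralog ACACB, the carboxylase form that restrains mitochondrial oxidation, overlapped between the groups (4.76 and 4.02 in shCON, 4.68 and 5.05 in shFAM49B).

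**Figure D3:**
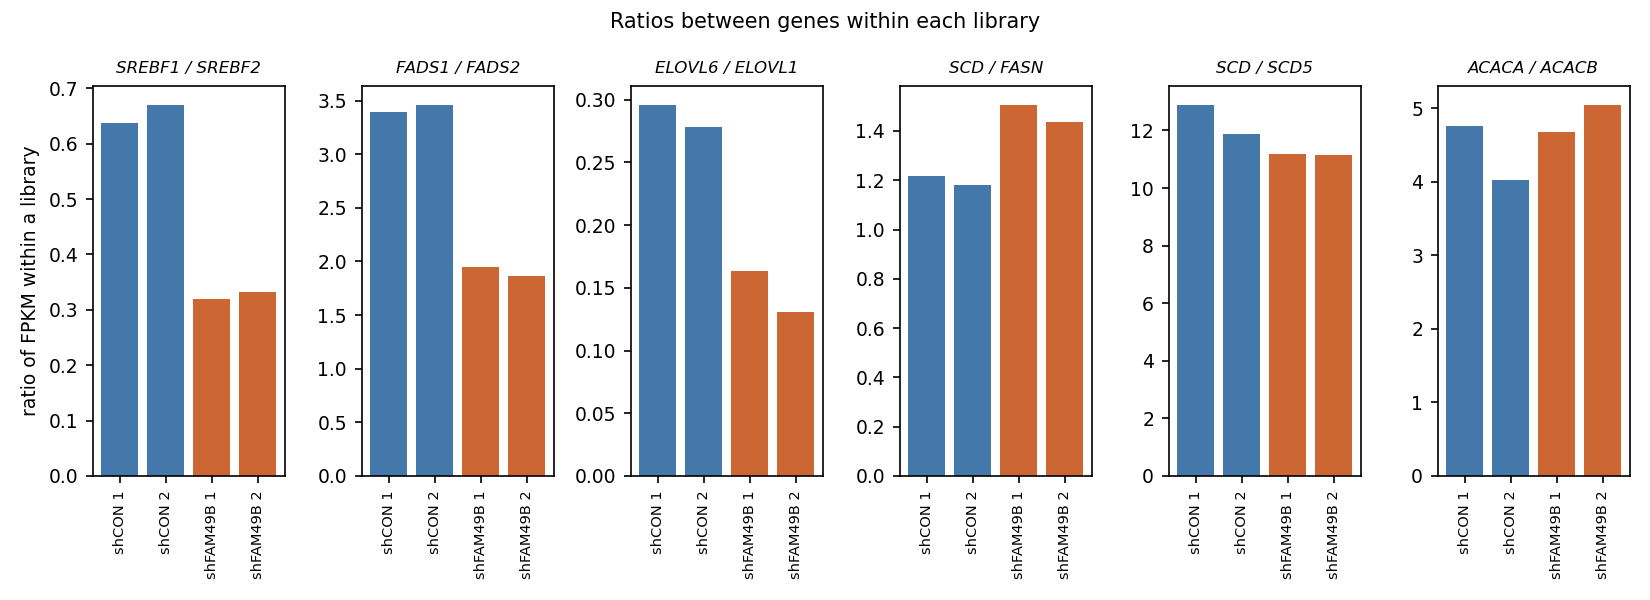
FPKM ratios between 6 pairs of genes within each library, 1 bar per library, with axes from 0 and a separate scale for each pair. SREBF1 to SREBF2, FADS1 to FADS2 and ELOVL6 to ELOVL1 are lower in both shFAM49B libraries (0.319 and 0.332 against 0.638 and 0.671 for SREBF1 to SREBF2), and ACACA to ACACB overlaps.

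Together the 10 genes took 0.306% and 0.294% of the reads in shCON and 0.363% and 0.379% in shFAM49B. SCD, ACLY and FASN made up 79.1% and 78.9% of those reads in shCON and 84.1% in both shFAM49B libraries. In FPKM, the order in shCON was SCD, ACLY, FASN, ELOVL5, ELOVL1, SREBF1, ACACA, FADS1, ELOVL6 and FADS2, and no neighbours in that order overlapped. In shFAM49B, ACACA (12.6 ± 0.408 FPKM) and SREBF1 (12.4 ± 0.870) overlapped, and FADS2 stood above ELOVL6. Among 7 elongases, ELOVL5 took 41.4% to 43.8% of the summed FPKM in every library. ELOVL6 took 7.60% and 7.27% in shCON and 4.74% and 4.22% in shFAM49B, and ELOVL1 took 25.7% and 26.2% in shCON and 29.02% and 32.3% in shFAM49B. The summed elongase FPKM was 77.4 and 76.8 in shCON and 79.5 and 81.6 in shFAM49B, while the sum of 5 desaturases was 146 ± 7.93 FPKM in shCON and 245 ± 7.96 in shFAM49B. SCD made up 83.4% to 85.3% of that desaturase sum in all libraries.

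Promoter windows were searched for motifs, and whether a motif goes with the direction of change was not tested. RefSeq (GRCh38.p14) gave windows of 300 bases, from 250 before to 50 after a gene's start, for 9 of the 10 genes (all but FASN), 13 windows in all. For the 3 largest rises and the 2 falls, the first listed window is printed in the direction of transcription, with matches to the searched motifs in capitals: SCD (chr10:100346983-100347282, plus strand), ACLY (chr17:41918973-41919272, minus), FADS2 (chr11:61815953-61816252, plus), SREBF1 (chr17:17836937-17837236, minus) and ELOVL6 (chr4:110198566-110198865, minus).
SCD promoter: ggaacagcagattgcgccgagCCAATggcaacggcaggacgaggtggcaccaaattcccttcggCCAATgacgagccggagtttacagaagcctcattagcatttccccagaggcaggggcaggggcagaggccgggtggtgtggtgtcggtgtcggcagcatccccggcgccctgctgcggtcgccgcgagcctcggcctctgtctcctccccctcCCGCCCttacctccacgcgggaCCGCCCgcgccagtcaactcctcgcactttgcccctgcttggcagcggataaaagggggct
ACLY promoter: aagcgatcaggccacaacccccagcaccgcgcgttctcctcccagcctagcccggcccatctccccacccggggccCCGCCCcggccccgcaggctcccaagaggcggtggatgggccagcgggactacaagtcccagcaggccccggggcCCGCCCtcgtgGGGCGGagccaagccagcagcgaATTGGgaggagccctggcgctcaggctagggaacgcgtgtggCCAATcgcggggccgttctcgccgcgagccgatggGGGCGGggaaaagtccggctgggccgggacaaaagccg
FADS2 promoter: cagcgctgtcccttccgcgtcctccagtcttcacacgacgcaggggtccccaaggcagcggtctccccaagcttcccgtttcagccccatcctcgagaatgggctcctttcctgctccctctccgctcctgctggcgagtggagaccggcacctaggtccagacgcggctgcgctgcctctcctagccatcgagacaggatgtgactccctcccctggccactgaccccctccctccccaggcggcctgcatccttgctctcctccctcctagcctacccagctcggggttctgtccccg
SREBF1 promoter: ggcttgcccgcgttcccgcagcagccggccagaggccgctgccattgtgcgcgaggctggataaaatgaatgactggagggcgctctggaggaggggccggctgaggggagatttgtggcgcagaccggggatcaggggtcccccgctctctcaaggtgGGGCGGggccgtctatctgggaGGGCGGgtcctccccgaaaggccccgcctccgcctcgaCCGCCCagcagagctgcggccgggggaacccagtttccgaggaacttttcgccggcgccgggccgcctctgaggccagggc
ELOVL6 promoter: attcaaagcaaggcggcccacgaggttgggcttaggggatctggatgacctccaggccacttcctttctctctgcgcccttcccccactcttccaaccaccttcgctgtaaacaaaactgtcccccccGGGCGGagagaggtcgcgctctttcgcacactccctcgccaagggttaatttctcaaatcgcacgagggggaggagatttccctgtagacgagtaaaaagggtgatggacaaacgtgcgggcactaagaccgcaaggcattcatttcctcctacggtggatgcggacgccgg
Motifs were searched on both strands: a core of the sterol regulatory element, TCACNCCAC, the E-box CACGTG, the CCAAT box CCAAT and the GC box GGGCGG, none of which contains another. SCD held 2 CCAAT boxes and 2 GC boxes, ACLY 2 and 4, SREBF1 3 GC boxes and ELOVL6 1 GC box. The FADS2 window held no match, and its second listed window, which overlaps the first, held 1 CCAAT box and 1 GC box. Over first windows, 4 of 9 genes held a CCAAT box, 7 of 9 a GC box and 1 of 9 (ELOVL5) an E-box. The same motifs occurred in 34.6%, 45.0% and 7.26% of all 35116 windows, which include further listed starts of a gene. The core of the sterol regulatory element, present in 1.13% of all windows, was in none of the first windows of the 9 genes, which says only that these letters are not there.

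The SREBP machinery around SREBF1 was measured from 6 further genes, of which 3 rose and none fell, where 26.4% of all tested genes were higher and 15.8% lower. INSIG1, which retains SREBP in the endoplasmic reticulum and is itself a target, rose 2.79-fold, SREBF2 rose from 23.4 ± 0.342 to 38.1 ± 1.60 FPKM (limma adjusted p = 0.00207) and SCAP, the escort of SREBP, rose 1.43-fold (adjusted p = 0.00740). As TPM 3 of the 6 were higher and 2 lower, against 11.6% and 31.7% of all tested genes, so the share lower was near the background. INSIG1 relative to SREBF1 was 0.640 and 0.599 in shCON and 2.24 and 2.05 in shFAM49B. Of 9 other regulators of lipogenic promoters, 4 rose and 5 did not pass (26.4% of all genes higher), and 3 were higher as TPM (11.6%). MLX, the partner of the carbohydrate-responsive factor MLXIPL, rose 2.16-fold (log2 fold change 1.02, adjusted p = 0.00156), the liver X receptor NR1H2 rose 1.59-fold and USF2 1.42-fold.

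Of 9 genes that supply carbon and reducing power for synthesis, 6 rose and 3 did not pass, against a background of 26.4% higher and 15.8% lower. Their median log2 fold change was 0.53, against 0.05 over all tested genes. As TPM 5 were higher and 2 lower (background 11.6% and 31.7%). Citrate synthase (CS) rose from 36.2 ± 0.805 to 63.2 ± 3.47 FPKM (1.75-fold, limma adjusted p = 0.00184), transketolase (TKT) 1.92-fold and the NADPH-producing PGD 1.59-fold. Among 8 tested partners of the carboxylase and the synthase, 1 rose and 1 fell, no more than the background of 26.4% and 15.8%, and as TPM none was higher and 1 lower (11.6% and 31.7%). PRKAA1, a catalytic subunit of the AMP-activated kinase that inhibits ACACA, fell from 10.5 ± 0.327 to 7.17 ± 1.12 FPKM (adjusted p = 0.0171), and its regulatory subunit PRKAG1 rose 1.34-fold (adjusted p = 0.00544). MID1IP1, which promotes polymerization of the carboxylase, had a log2 fold change of 0.16 (adjusted p = 0.062) and turned negative as TPM (-0.073) and relative to recovered reads (-0.053). PRKAA1 did not pass without shCON replicate 1 (0.0857), shCON replicate 2 (0.0638) or the filter on low values (0.0764), and PRKAG1 did not pass as TPM (0.0577).

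In the elongation cycle, which adds 4 other elongases and the enzymes that finish each round, 3 of 8 tested genes rose and 1 fell, near the background of 26.4% and 15.8%. As TPM 2 were higher and 4 lower (background 11.6% and 31.7%). The dehydratase HACD3 rose 1.61-fold, from 33.9 ± 0.794 to 54.5 ± 0.971 FPKM (limma adjusted p = 0.00188), and the reductase TECR rose 1.64-fold. ELOVL4, which makes the longest chains, fell from 8.66 ± 0.0101 to 6.18 ± 0.599 FPKM (adjusted p = 0.0115). The ELOVL4 call was lost without shCON replicate 1 (0.0647), shCON replicate 2 (0.0607) or the filter on low values (0.0503). Of 7 tested genes of other desaturases and their electron carriers, 3 rose and 1 fell (background 26.4% and 15.8%), and as TPM 1 was higher and 2 lower, near the background of 11.6% and 31.7%. SCD5, the paralog of SCD, rose 1.89-fold, from 9.86 and 9.89 FPKM to 18.2 and 19.0 FPKM (adjusted p = 0.00156), beside the 1.70-fold of SCD. Fewer genes of this list passed without shCON replicate 1, shCON replicate 2 or shFAM49B replicate 2, as was so over all tested genes. DEGS1, the ceramide desaturase, fell 1.18-fold, a call lost with any 1 of the 4 libraries left out (adjusted p = 0.0559 to 0.0990) or without the filter on low values (0.0523). The cytochrome b5 reductase CYB5R3 rose 1.20-fold as deposited, but passed under none of the 4 other scalings, nor without the filter on low values (adjusted p = 0.0729) or without shCON replicate 1 (0.115), shCON replicate 2 (0.0699) or shFAM49B replicate 2 (0.119).

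Fatty acids made or taken up are activated and then esterified or oxidized. Of 12 tested genes of glycerolipid assembly, 3 rose and 4 fell (background 26.4% and 15.8%), with a median log2 fold change of -0.11, and the share higher was near the background. As TPM 6 were lower (background 31.7%). AGPAT5, which acylates lysophosphatidic acid, fell 1.67-fold (limma adjusted p = 0.00325), and the glycerol phosphate acyltransferases GPAT4 and GPAT3 fell 1.38-fold and 1.36-fold. The calls of GPAT4 and GPAT3 were lost without shCON replicate 1 (adjusted p = 0.0600 and 0.0616), and that of GPAT3 also without shCON replicate 2 (0.0636) or shFAM49B replicate 2 (0.0526). No gene of this list was higher as TPM (background 11.6%). Fewer of its genes were lower without shCON replicate 1, shCON replicate 2 or shFAM49B replicate 2, as was so over all tested genes. Of 7 tested acyl-CoA synthetases 1 rose and none fell (background 26.4% and 15.8%). ACSF2 rose 1.55-fold (adjusted p = 0.00695), while SLC27A1 (log2 fold change 0.31, adjusted p = 0.0781) and SLC27A4 (-0.19, adjusted p = 0.135) did not pass. As TPM 1 synthetase was higher and 3 were lower (background 11.6% and 31.7%), SLC27A4 among the latter (-0.44, adjusted p = 0.0122), and 2 were lower relative to recovered reads (30.3%). Of 14 tested genes of mitochondrial and peroxisomal fatty acid oxidation, 8 rose and none fell (background 26.4% and 15.8%), and 4 were higher as TPM (11.6%). Fewer of them were higher without shCON replicate 1, as was so over all tested genes. HADHA, a subunit of the trifunctional protein, rose 1.53-fold, HADH 1.42-fold and ECI1 1.38-fold (adjusted p = 0.00362 to 0.00422). Mitochondrial fatty acid synthesis, a separate route, had 2 of 9 genes higher and 1 lower, at or under the background of 26.4% and 15.8%, and 1 and 2 as TPM (11.6% and 31.7%). HSD17B8 rose 1.58-fold and NDUFAB1, the acyl carrier protein, 1.23-fold, while CBR4 fell 1.36-fold (adjusted p = 0.0219). The NDUFAB1 call was lost as TPM (log2 fold change 0.050), without shCON replicate 1 (adjusted p = 0.0769) and without shFAM49B replicate 2 (0.0843). The CBR4 call was lost without shCON replicate 1 (0.108), shCON replicate 2 (0.0783) or shFAM49B replicate 2 (0.0731), or without the filter on low values (0.0830).

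**Figure D4:**
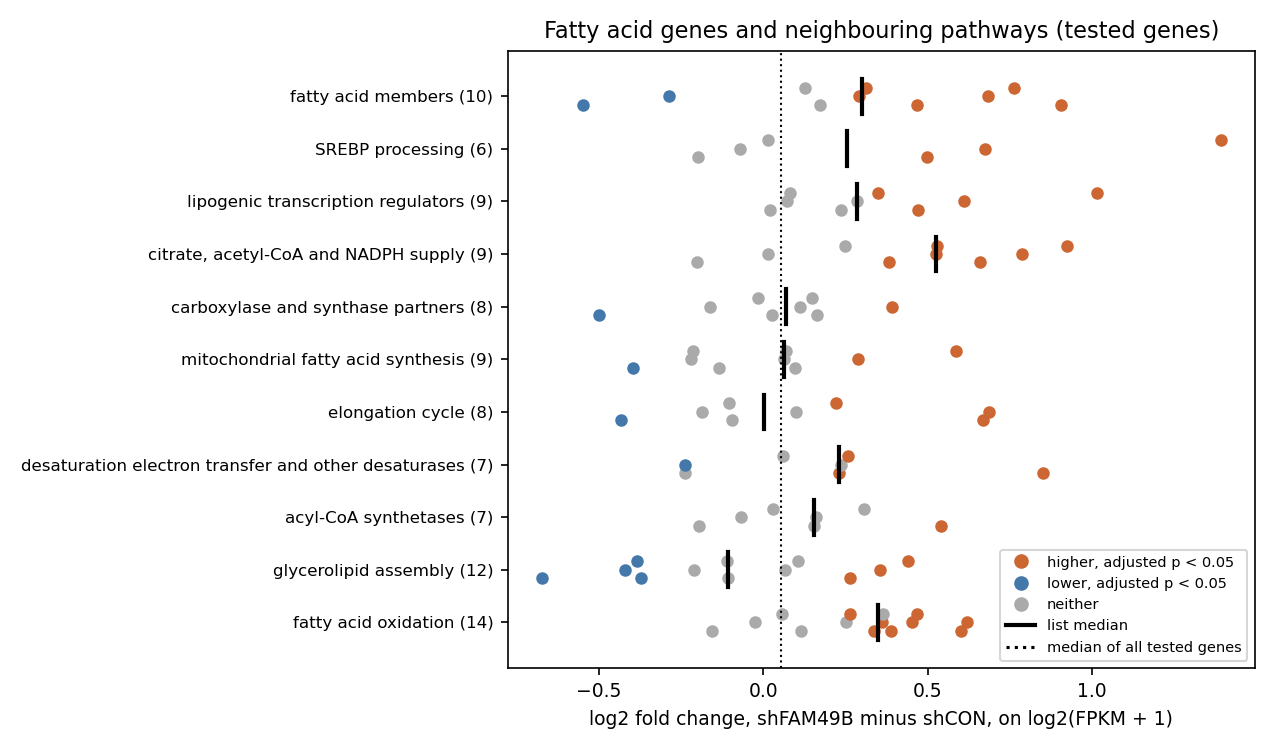
Log2 fold change on log2(FPKM + 1), shFAM49B minus shCON, of every tested gene of 11 lists, coloured by its limma call, with the list median as a bar, the number of tested genes in brackets and the median of all tested genes (0.05) as a dotted line. Supply genes (median 0.53), oxidation genes (median 0.35), SREBP processing, lipogenic regulators and acyl-CoA synthetases hold no gene called lower, and glycerolipid assembly (median -0.11) holds 4. Of all tested genes 15.8% were called lower as deposited. As TPM 2 supply genes were lower (background 31.7%).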

How the data were processed

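RNA was sequenced from 2 shCON and 2 shFAM49B libraries, grouped and numbered by sample title. The authors deposited 1 table of FPKM per gene, with gene coordinates and length, per the file headers. For the aligner and counter no name is given in the sources used here. Mouse builds (GRCm38, mm10) appear in the submitters' processing notes, but all 58735 identifiers, starts and ends match human GENCODE release 29 (GRCh38). Reads were recovered as the whole multiples of each library's step in FPKM × length (100% of values above 0, within 0.001 steps). Library denominators equalled median-ratio scaling over 20791 genes. Replicates differed by more than counting noise (chi-square per gene 3.90 in shCON and 3.48 in shFAM49B) and each was kept.

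Values as deposited were tested as log2(FPKM + 1) by limma 3.58.1 (R 4.3.3), using a mean-variance trend, where a gene averaged 1 FPKM or more. Tests were 2-sided, with Benjamini-Hochberg adjustment over 13775 genes and a threshold of 0.05. The procedure was run on simulated data with few changed genes and independent libraries. That setting differs from these data, so it does not show how reliable the calls are here. Log2 fold changes on this scale understate changes of low genes, and folds are ratios of mean FPKM. Alternatives were a pseudocount of 0.1, no filter or a filter at 5 FPKM, TPM, FPKM relative to recovered reads and quantile normalization. Others were median ratios over tested genes, voom on recovered reads under median-ratio scaling, a replicate block and leaving out each library. The genes of interest and all lists were chosen with earlier results of these data known. Named from each other list were up to 3 tested genes with the smallest p, and genes that overlap a member. No list was tested as a set.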

Additional observations from a re-analysis of the deposited data

How the results depend on the processing

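Over 13 alternatives, ACLY and SCD stayed higher past the threshold in all 13, and FADS2 stayed higher and ELOVL6 lower in the 12 that tested them. FASN passed in 12, SREBF1 in 9, ELOVL1 in 5, FADS1 in 4, ACACA in 1 and ELOVL5 in none, and the cause was not tested. Without a filter on low values 2185 of 32758 tested genes were higher and 1378 lower, as were 4 and 1 of the fatty acid genes. With a filter at 5 FPKM 3187 of 7756 tested genes were higher and 1322 lower, a larger share higher than the 26.4% of the main fit. Of the fatty acid genes 5 were higher, and 1 was lower because ELOVL6 was not tested, nor was FADS2. As TPM 1597 genes were higher and 4362 lower, and relative to recovered reads 1722 and 4173. The median log2 fold change of the fatty acid genes was 0.081 as TPM, 0.093 relative to recovered reads and 0.11 after quantile normalization, where 3 of them were higher. TPM and scaling by recovered reads shifted tested genes by a median of -0.24 and -0.19. ACACA turned to -0.055 as TPM and -0.034 relative to recovered reads, ELOVL5 to -0.11, -0.093 and, after quantile normalization, -0.077, and MID1IP1 to -0.073 as TPM and -0.053 relative to recovered reads. Leaving out each library gave 1897 to 2495 genes higher and 1027 to 1529 lower, with the lowest counts without shFAM49B replicate 2 and shCON replicate 1, 4 to 5 fatty acid genes higher, 1 to 2 lower and medians of 0.23 to 0.37. These fits leave 1 library in a group, which is assumed to vary like the other group. Same-numbered libraries did not deviate together (correlation -0.0132), and the labels give no pairing. With the replicate block 3429 genes were higher and 2036 lower, as were 5 and 2 of the fatty acid genes, with only FADS1 losing its call among the 10. ELOVL6 and FADS2 had the smallest counts of the 10 genes, down to 376 and 389 reads, and an effect of depth was not tested.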
